A study of Mus musculus with 9 samples.

Results

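The genes described here encode the proteins of the cytosolic ribosome. They were taken by symbol: names that begin with Rpl or Rps followed by a digit, together with Rplp0, Rplp1 and Rplp2, leaving out the S6 kinases (Rps6k) and the pair Rpl22 and Rpl22l1. This gave 84 members among 20467 genes with a symbol. Of these, 42 encode large subunit proteins and 30 small subunit proteins, and 3 encode the proteins of the stalk on the large subunit. A further 6 are paralogs (Rpl3l, Rpl7l1, Rpl10l, Rpl36al, Rpl39l and Rps27l), and 2 carry pseudogene-type symbols (Rpl31-ps12 and Rpl34-ps1). Rps19bp1 has a matching symbol but encodes a protein that binds Rps19, not a ribosomal protein. The samples were 9 RNA-seq libraries from RAW264.7, a mouse macrophage-like cell line, in which every culture had received lipopolysaccharide (LPS), a bacterial activator of macrophages, at 100 ng/ml for 2 h. Roquin IP (3 libraries) was RNA recovered with rabbit polyclonal antibodies to Roquin plus protein A/G beads, Ctrl IP (3 libraries, the control) was RNA recovered with the beads and no antibody, and input (3 libraries) was lysate RNA taken ahead of the IP. No library came from unstimulated cells, and an IP with an unrelated antibody was not part of the samples analysed here.

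Ribosomal protein genes are among the most strongly expressed genes of growing cells, and their products assemble with ribosomal RNA into the large and the small subunit. Most of their mRNAs start with a terminal oligopyrimidine (TOP) tract, a C followed by further pyrimidines directly at the cap, through which mTOR signalling and the protein Larp1 set how well they are translated. Roquin, encoded in mouse by Rc3h1 and Rc3h2, binds stem-loops in the 3' untranslated region (3' UTR) of mRNAs such as Tnf and promotes their decay; the constitutive decay element (CDE) is the best known of these stem-loops. Ribosomal protein mRNAs, by contrast, are long-lived. The comparisons ask how this abundant class behaved in an IP for a factor that acts on short-lived mRNAs.

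The libraries held 1799390 to 12975767 reads assigned to genes, and the members held 26256 to 175251 of them. Levels are given as CPM, counts per 1000000 reads after scaling each library by its TMM factor, and 1 CPM stood for 2.02 to 11.6 reads. A count of 0 allowed up to 3 reads, or 0.258 to 1.49 CPM. All 8 macrophage markers that the table lists were detected, with summed levels of 1243 to 2048 CPM in Roquin IP, 1003 to 1547 in Ctrl IP and 1215 to 1751 in input; in bulk RNA, fewer cells of a type and less RNA per cell cannot be told apart. Of 8 lymphocyte markers 5 were at 0 in every library, and of 11 fibroblast, epithelial and endothelial markers 3 were, with summed levels of at most 1.26 and 1.38 CPM. Tnf, the best known Roquin target, took 21.9% ± 4.91 (SD, n = 3) of reads in Roquin IP, against 0.207% ± 0.0598 in Ctrl IP and 0.310% ± 0.178 in input.

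The start of each mRNA was read from RefSeq (GRCm38.p6), which held a start for 63 of the 84 members. The windows printed here run from 10 bases before the annotated start to 20 bases of transcript, on the gene's strand, 5' to 3'. Capitals mark the longest run of a C and at least 4 further pyrimidines, counted from a C within 5 bases of the start. Pyrimidines ahead of that C were not considered, so a marked run can be part of a longer one, as in Rpl35. All other letters stay in lower case. They are shown for members that the comparisons turn on, first those with a tract and then those without.
Rps24 (chr14:24490668-24490697, +): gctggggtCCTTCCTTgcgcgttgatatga
Rpl28 (chr7:4792955-4792984, +): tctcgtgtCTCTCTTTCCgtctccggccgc
Rpl35 (chr2:39005112-39005141, -): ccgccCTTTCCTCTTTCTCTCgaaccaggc
Rps9 (chr7:3704031-3704060, +): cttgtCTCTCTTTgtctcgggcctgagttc
Rpl13a (chr7:45128726-45128755, -): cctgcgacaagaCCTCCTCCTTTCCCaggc
Rps2 (chr17:24720053-24720082, +): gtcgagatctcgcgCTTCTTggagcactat
Rpl38 (chr11:114668570-114668599, +): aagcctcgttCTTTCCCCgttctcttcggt
Rpl36a (chrX:134585644-134585673, +): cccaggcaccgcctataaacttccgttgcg
Rpl26 (chr11:68901556-68901585, +): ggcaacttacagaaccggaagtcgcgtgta
Rpl6 (chr5:121204491-121204520, +): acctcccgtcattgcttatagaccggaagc
A tract counted from a C within 5 bases of the annotated start was found, searching the gene's strand only, for 28 of 63 members (44.4%), against 21.2% of the 27025 genes with a start. Within 2 bases the shares were 33.3% and 10.6%, and within 10 bases 58.7% and 34.4%. A window without a tract says only that these letters were not at this annotated start, since RefSeq starts can lie some bases away from the one used by the cells.

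The core of the decay element, TTC followed by a pyrimidine, a purine, a pyrimidine and GAA, was looked for on the sense strand of the 3' UTRs of all protein-coding transcripts in GENCODE (GRCm38). It stood in 4 of 82 members with a 3' UTR (4.88%) and in 1188 of 21685 genes overall (5.48%), while the median length of the longest 3' UTR was 169.5 bases for members and 920.0 for all genes. The 4 sites are printed because they are the places in this class where the letters of the core occur, in capitals with 6 bases on either side.
Rps15a (chr7:118105313-118105333, -): tttcatTTCTGTGAAatgggt
Rps20 (chr4:3832674-3832694, -): cattgaTTCTGTGAAtcttgt
Rpl15 (chr14:18268892-18268912, -): tgagtgTTCTGTGAAaatgta
Rpl5 (chr5:107907998-107908018, +): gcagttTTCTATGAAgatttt
Further base pairs were counted outward from the core, as A-U or G-C only and up to the first other pair. There were 3 in Rps15a, 2 in Rps20, and 0 in Rpl15 and Rpl5. G-U pairs were not counted, and the letters next to the core in Rpl5 would form such a pair. The Rps15a site lay at base 3776 of a 3' UTR annotated at 4731 bases, so it belongs to a long isoform and not to the short mRNA typical of the class. In the authors' deposited table Rps15a was the only member for which a decay element was predicted, in the 3' UTR and not conserved, and the other 83 members had none.

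In the input, levels per kilobase of coding sequence ranged from 27.9 to 3193 CPM per kb among the members with a coding length that were tested. Highest was Rpl41, which encodes the smallest ribosomal protein, at 3193 ± 1756 CPM per kb (SD, n = 3), with 1173 in input 1 and 4054 in input 2, so its place rests on a coding sequence of 75 bases. Rpl4, a protein that lines the nascent peptide exit tunnel, followed at 1573 ± 397 CPM per kb. Then came Rpl32 at 963 ± 400.1, the stalk protein gene Rplp1 at 932 ± 321, Rpl23, whose product also binds Mdm2, at 926 ± 537, and Rps3, at the mRNA entry channel, at 816 ± 223. Neighbours in this order, from Rpl4 to Rps3, overlap in their spread and are not resolved. At the low end stood Rpl21 at 46.1 ± 20.02, Rps2 at 43.3 ± 7.44, Rpl29 at 29.0 ± 7.72, and Rps19bp1 at 27.9 ± 16.7 CPM per kb. Rpl10l and Rpl39l, paralogs known mainly from testis, had 0 reads in all 9 libraries, which allows at most 1.49 CPM in the shallowest. Rpl3l, a paralog known from striated muscle, had 3 reads in all, every one of them in input 2. These 3 did not pass the filter on low counts, and 81 members were tested.

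How many reads each member drew can also depend on sequence it shares with other genes, since mouse ribosomal protein genes have many processed pseudogenes. Of the 79 tested members with a coding sequence in GENCODE, 30 had no stretch of 50 coding bases that was free of an exact match in transcripts of another annotated gene, 67 had under 50% such stretches, and the median was 8.44%. Among the members with the most unshared stretches were Rps19bp1, at 100.0%, and Rps3 and Rpl8, at 91.9% and 91.3%. At the other end, Rpl7a shared 50-base stretches with 123 genes, Rpl29 with 84, Rpl21 with 82 and Rps2 with 71. Across these 79 members, which share all libraries, Spearman's rho between input level per kilobase and the share of unshared stretches was 0.374, a description only. The counts of Rpl34 and Rpl34-ps1 were nearly the same in every library, with ratios of 0.921 to 1.0, so the authors' counting gave nearly equal reads to both names; for Rpl31-ps12 over Rpl31 the ratio ran from 0.532 to 1.56. Values of members with few unshared stretches are therefore uncertain in level, and how the authors' counting treated reads with several matches was not stated in the sources used here.

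**Figure D1:**
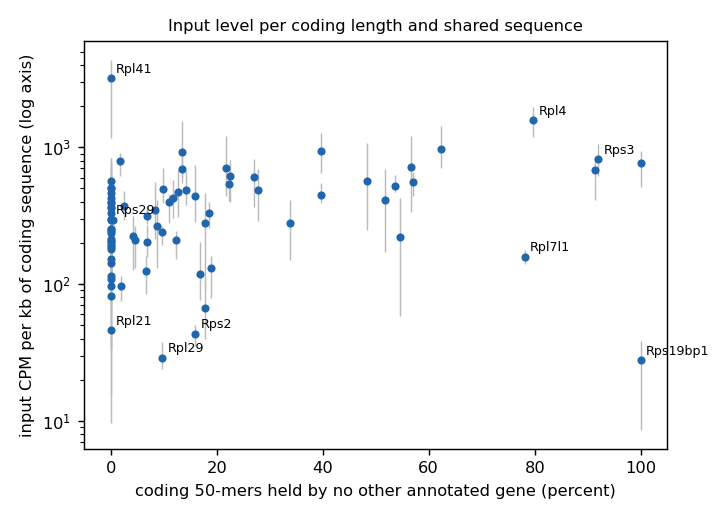
Input level of each tested member in CPM per kilobase of coding sequence (log axis; points, mean of 3 libraries; lines, lowest to highest library) against the percent of its 50-base coding stretches that no other annotated gene holds. Low levels such as Rpl21 and Rpl29 stand at the left, Rps19bp1 is low at 100.0%, and Rpl41 spans 1173 to 4054 between input 1 and input 2.

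Ribosomal protein genes took a smaller share of all reads in Roquin IP than in either background. The share was 0.870%, 0.721% and 0.847% in Roquin IP 1 to 3, 1.69%, 1.48% and 2.07% in Ctrl IP 1 to 3, and 1.68%, 2.59% and 1.46% in input 1 to 3. Every Roquin IP library lay below every Ctrl IP and every input library, and Ctrl IP and input overlapped. The means were 0.813% ± 0.0804 (SD, n = 3), 1.75% ± 0.297 and 1.91% ± 0.600, so Roquin IP had 0.465 of the Ctrl IP share and 0.425 of the input share, with an exact two-sided permutation p of 0.1 for each, the smallest that 3 libraries against 3 allow. Ctrl IP against input gave a ratio of 0.915 (exact permutation p = 0.9). Large subunit, small subunit and stalk genes moved alike, with ratios of Roquin IP to Ctrl IP of 0.471, 0.448 and 0.534. Tnf took 21.9% of Roquin IP reads, and Lars2, which encodes a mitochondrial leucyl-tRNA synthetase, took 18.3% against 35.2% in Ctrl IP and 37.5% in input. With both genes left out of the totals the shares were 1.36% ± 0.180, 2.71% ± 0.341 and 3.04% ± 0.715, and Roquin IP still lay at 0.504 of Ctrl IP and 0.449 of input without overlap.

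**Figure D2:**
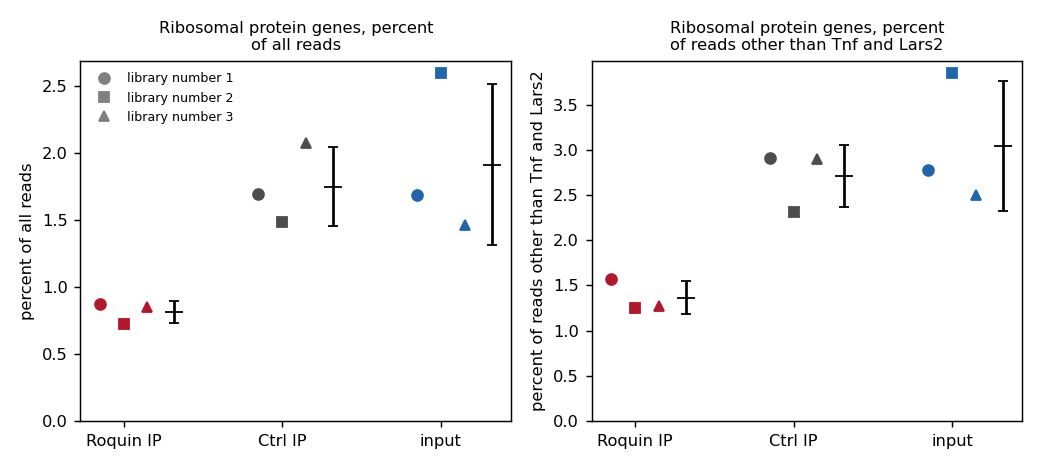
Percent of reads assigned to the 84 ribosomal protein genes in each library, out of all reads (left) and out of reads other than Tnf and Lars2 (right), by group; symbols give the library number, and bars the mean with 1 SD of 3 libraries. Roquin IP lies at 0.721% to 0.870% on the left, below all Ctrl IP and input libraries in both panels.

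A share falls whenever other RNAs rise, so genes were also compared after TMM scaling, which sets most genes near no change. Against Ctrl IP, no ribosomal protein gene then stood out. By edgeR's quasi-likelihood test with Benjamini-Hochberg adjustment over all 9567 genes tested, 0 of the 81 members were higher and 0 lower in Roquin IP, where 3.76% of all genes were called higher and 0.0% lower. With no adjustment, 0 members were higher and 1 lower at a p under 0.05 (7.93% and 2.13% of all genes). DESeq2 called 0 and 0 (4.96% and 0.0627% of all genes), and the fit with replicate number as a block also called 0 and 0 (5.52% and 0.115%). Log2 fold changes ran from -0.65 (Rpl38) to 0.18 (Rps25) with a median of -0.24, against -0.12 for all genes, and 74 of 81 were negative (91.4%, against 60.2% of all genes). In 78 of the 81 members the 95% interval of the fold change lay below a 2-fold rise. The exceptions were Rps27, Rps28 and Rps29, which have short coding sequences and a wide spread. On the other side, the interval lay above a 2-fold fall in only 48 of the 81, so a fall of that size was not excluded for the rest. Under library size alone, without TMM, 61 members were called lower, but so were 38.8% of all genes: the median of all genes shifted by -0.84 to -0.96, and members stood at -1.09. Relative to the median of all genes, members stood at -0.12 with TMM and -0.13 without. With the summed counts of the members as library size, which centres the members near 0 by construction, they stood at -0.11 relative to all genes.

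Among small subunit genes, Rps2, at the mRNA entry site, came nearest to a call. It stood at 45.7, 45.3 and 48.2 CPM in Roquin IP 1 to 3, 60.6, 73.1 and 72.0 in Ctrl IP and 38.7, 44.3 and 31.2 in input. All Roquin IP libraries lay below all Ctrl IP libraries and above all input libraries. The log2 fold change to Ctrl IP was -0.56 (SE 0.26, edgeR adjusted p = 0.488), and this was the 1 member with an unadjusted p under 0.05. Rps27a, which encodes ubiquitin fused to a ribosomal protein, and Rps16 also had groups apart, with log2 fold changes of -0.55 (SE 0.33, adjusted p = 0.663) and -0.52 (SE 0.28, adjusted p = 0.622) by edgeR. Rps3 had 646, 519.7 and 498 CPM in Roquin IP against 726, 730.2 and 751 in Ctrl IP, a log2 fold change of -0.41 (SE 0.27, edgeR adjusted p = 0.694). In all, 7 members lay below Ctrl IP in every library, Rps2, Rps3, Rps16 and Rps27a among them, or 8.64% of members against 8.0% of all genes, and 0 lay above, against 10.7%. Rps6, the target of the S6 kinases, had a log2 fold change of -0.46 (SE 0.30, edgeR adjusted p = 0.681), and the stalk genes Rplp0, Rplp1 and Rplp2 had -0.02, -0.06 and -0.11. Rps4x, Rps14, Rps15 and Rps19, the last mutated in human Diamond-Blackfan anaemia, had -0.30, -0.12, -0.36 and -0.45, none called.

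Large subunit genes were as close to the Ctrl IP. Rpl4 held 1674, 1413 and 1133 CPM in Roquin IP, 1695, 1417 and 1275 in Ctrl IP and 1936, 2496 and 1499 in input. Its Roquin IP and Ctrl IP values overlapped almost fully, with a log2 fold change of -0.06 (SE 0.29, edgeR adjusted p = 0.962). Rpl5 and Rpl11, which carry 5S RNA into the large subunit and bind Mdm2, had -0.35 and -0.20, and Rpl3, near the peptidyl transferase centre, had -0.16. Rpl13a, which in human myeloid cells also acts in the GAIT complex that represses inflammatory mRNAs, had -0.50 (SE 0.29, edgeR adjusted p = 0.646). It was among the 22 of 81 members that were lower in all 3 number-matched pairs, a count not made for all genes. Rpl38, known in mouse for its part in translation of Hox mRNAs, had the lowest value but also a wide spread, at 31.0, 25.8 and 23.8 CPM in Roquin IP against 67.0, 19.4 and 39.8 in Ctrl IP. Rpl10 and Rpl10a had -0.23 and -0.49, and Rpl23, Rpl26, Rpl39 and Rpl41 had -0.14, -0.16, -0.17 and 0.02. Of the paralogs, Rpl7l1, Rpl36al and Rps27l had -0.22, -0.14 and -0.46. Members with a decay element core did not differ from Ctrl IP by edgeR either: Rps15a held 144, 165 and 146 CPM in Roquin IP, 185, 131.5 and 181 in Ctrl IP and 112, 289 and 111 in input, with a log2 fold change of -0.13 to Ctrl IP (SE 0.35, adjusted p = 0.933), and Rps20, Rpl15 and Rpl5 had -0.33, -0.30 and -0.35. In the authors' deposited table the ratios of Roquin IP to Ctrl IP of 81 members ran from 0.64 to 1.14 with a median of 0.85, 7 of them above 1, and every p-value was 1.0. The deposited ratios and p-values were not summarised over all genes, so they describe the members without setting them apart from other genes.

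**Figure D3:**
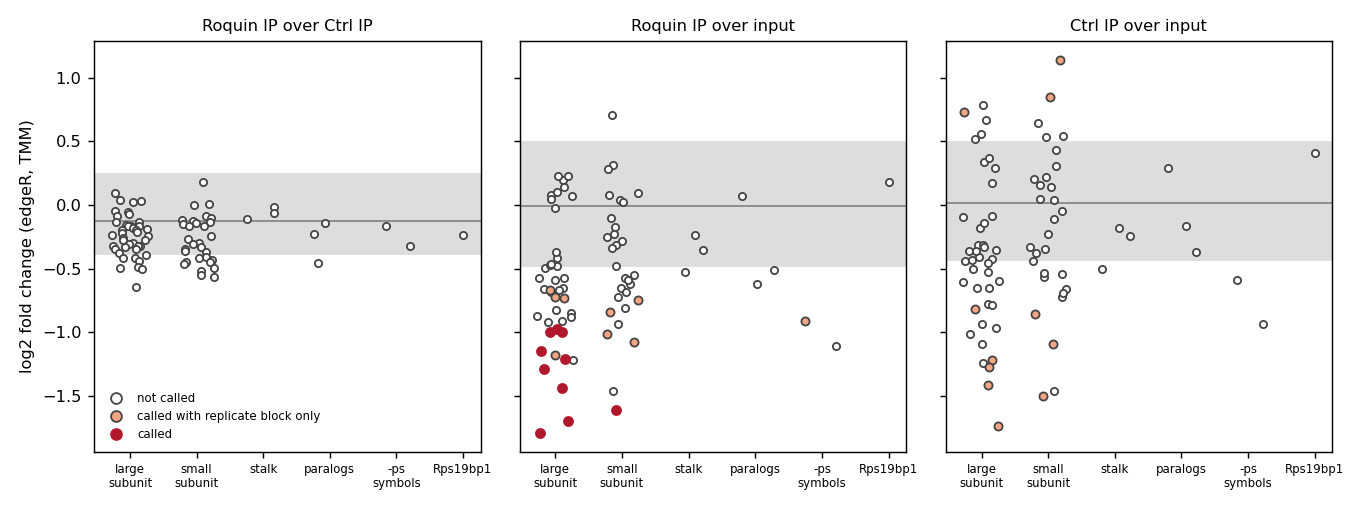
Log2 fold change of each tested member (points) by class in the 3 comparisons, with the median (line) and the middle 50% (grey band) of all 9567 genes tested; filled red points passed edgeR's adjusted p of 0.05, and orange points passed only with replicate number as a block. Members lie near the median of all genes in Roquin IP over Ctrl IP, while 10 members are called lower in Roquin IP over input.

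Against the input, a subset of ribosomal protein genes was lower in Roquin IP. By edgeR's quasi-likelihood test with adjustment over all genes, 10 of 81 members were lower and 0 higher in Roquin IP than in input, where 2.79% of all genes were lower and 5.45% higher. With replicate number as a block there were 19 lower and 0 higher (8.04% and 9.99% of all genes). DESeq2 called 16 lower and 0 higher (5.59% and 7.41%), and without adjustment 33 were lower and 1 higher at a p under 0.05 (10.7% and 12.1%). The 10 were 9 of the 42 large subunit genes and 1 of the 30 small subunit genes, and with the block 13 and 5. The median log2 fold change of the members was -0.59, against -0.01 for all genes. Their order ran from Rpl21 at -1.79 to Rps9 at 0.70. The count depended on single libraries, and calls over all genes fell with it. It was 0 without Roquin IP 1 (0.306% of all genes), Roquin IP 3 (0.638%) or input 2 (0.877%), 1 without Roquin IP 2 (1.02%), 6 without Ctrl IP 2 (2.02%) and 3 without the 3 libraries numbered 1 (1.17%). The median of the members was -0.65, -0.57 and -0.53 without Roquin IP 1, 2 and 3, and -0.34 without input 2. With library size alone 59 members were lower (27.9% of all genes), at a median of -1.36 with all genes shifted by -0.75 to -0.76. With the members' own sum as library size, which takes out their common shift by construction, 0 were lower (0.188%), and their median relative to all genes was -0.54, against -0.58 with TMM.

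The 10 called genes stood 1.96-fold (Rpl28) to 3.45-fold (Rpl21) lower in Roquin IP. Rpl36a had 58.7, 49.4 and 40.9 CPM in Roquin IP 1 to 3, 72.5, 31.2 and 42.2 in Ctrl IP and 246, 163 and 72.4 in input. Each Roquin IP library lay below each input library, and the Ctrl IP libraries lay at the level of Roquin IP. The log2 fold change to input was -1.70 (SE 0.42, edgeR adjusted p = 0.0232). Rps24, a small subunit gene mutated in human Diamond-Blackfan anaemia, had 80.1, 107.6 and 87.7 CPM in Roquin IP, 95.02, 98.0 and 103 in Ctrl IP and 174, 480.4 and 184.5 in input. Input 2 was the highest library by far, and all IP libraries lay below all input libraries. Its log2 fold change to input was -1.61 (SE 0.36, edgeR adjusted p = 0.0144).

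Rpl26, whose human product is also known to bind p53 mRNA, held 91.0, 72.7 and 65.1 CPM in Roquin IP, 115, 57.6 and 83.0 in Ctrl IP and 188.5, 295 and 134 in input. Here too the groups did not overlap between Roquin IP and input, with a log2 fold change of -1.44 (SE 0.34, edgeR adjusted p = 0.0196). Rpl21 rested on few reads, 8, 59 and 80 in Roquin IP and 39, 84 and 35 in input, at a log2 fold change of -1.79 (SE 0.48, edgeR adjusted p = 0.0330). Rpl23a, Rpl35 and Rpl17, which lie around the exit of the nascent peptide tunnel, had log2 fold changes to input of -1.29, -1.21 and -1.14. The remaining called genes, Rpl19, Rpl6 and Rpl28, stood 2.00-fold, 1.99-fold and 1.96-fold lower with edgeR adjusted p-values of 0.0457, 0.0321 and 0.0480. For all 10, Roquin IP and input did not overlap; over all members this held for 25 on the lower side (14.3% of all genes) and for 2, Rps2 and Rps9, on the higher side (16.5%). Of the 10 called genes, 6 had no 50-base coding stretch free of matches in another gene, and the highest share was 21.7% (Rps24).

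Rps9, a small subunit protein at the mRNA entry channel, was the member with the highest value over input. It had 685, 459 and 438 CPM in Roquin IP, 872, 557 and 707 in Ctrl IP and 257, 384 and 329 in input. Both IPs lay above every input library, and the log2 fold change of Roquin IP to input was 0.70 (SE 0.29, edgeR adjusted p = 0.166). With the members' sum as library size together with the replicate block, a fit added after the data were seen, Rps9 was called at 1.12 (edgeR adjusted p = 0.0157), beside 4 lower genes (Rpl36a, Rpl21, Rps24 and Rpl26), where 15.6% of all genes were higher and 0.784% lower. Rps14, Rps2, Rpl8 and Rpl13a followed at 0.32, 0.28, 0.23 and 0.22, none of them called. Among the other genes named for their roles, Rplp0 had -0.52, Rpl4 -0.49, Rpl3 -0.47, Rpl5 -0.66, Rpl11 -0.02, Rps6 -0.32 and Rps3 -0.10, none called without the block. Rpl10 had -0.41, Rpl10a -0.58, Rpl23 -0.91, Rpl39 -0.82, Rps15 -0.59, Rps25 -0.55 and Rps19 0.08, also not called. With the block Rps4x was called lower (-0.82, edgeR adjusted p = 0.0200), and Rpl5 too (-0.63, adjusted p = 0.0499).

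**Figure D4:**
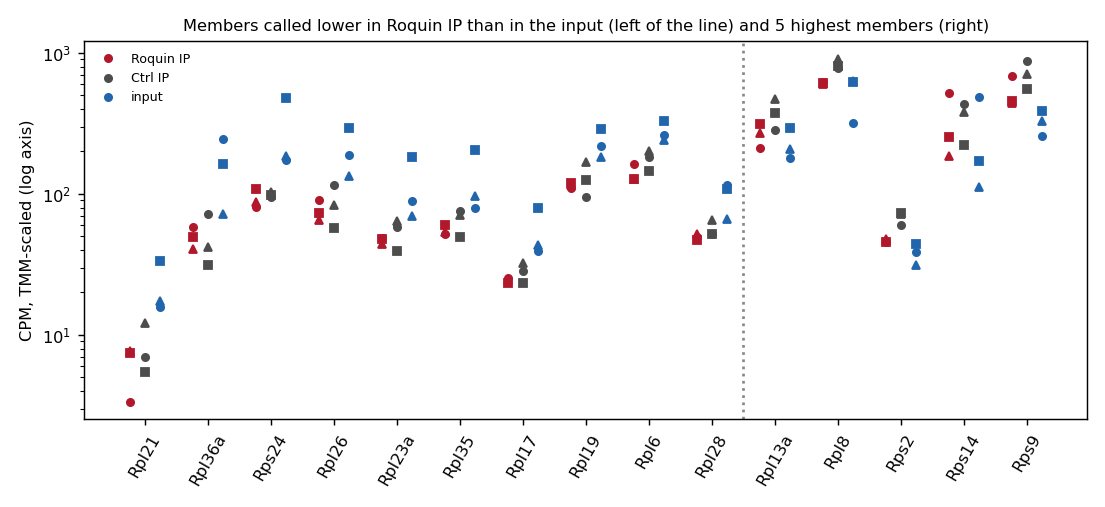
TMM-scaled CPM (log axis) of each library for the 10 members called lower in Roquin IP than in input (left of the dotted line) and the 5 members with the highest fold change (right), by group; marker shapes give the library number as circle (1), square (2) and triangle (3). On the left the Ctrl IP libraries lie near Roquin IP and below most input libraries, and Rps9 lies higher in both IPs than in input.

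The beads without antibody gave values in the same direction. Ctrl IP and Roquin IP are both set against the same input libraries, so their values are given side by side and not as separate evidence. For the 10 genes called in Roquin IP, the log2 fold change of Ctrl IP to input ran from -1.73 to -0.65 with a median of -1.03, against -1.79 to -0.97 with a median of -1.25 for Roquin IP to input and -0.38 to 0.03 for Roquin IP to Ctrl IP. Over all 81 members, edgeR called 0 higher and 0 lower in Ctrl IP than in input (0.815% and 0.303% of all genes), with 4 and 16 at an unadjusted p under 0.05 (10.8% and 9.53%), and DESeq2 called 2 and 8 (4.16% and 4.08%). With the replicate block 3 were higher and 8 lower (6.65% and 5.78% of all genes). The higher genes were Rps9 at 1.11 (edgeR adjusted p = 0.0142), Rps2 at 0.85 (0.0284) and Rpl13a at 0.73 (0.0329). The lower genes were Rpl36a at -1.66 (edgeR adjusted p = 0.00502), Rps24, Rpl21, Rpl26, Rpl31, Rps27, Rps12 and Rpl19. The median of the members was -0.36, against 0.02 for all genes, and 4 members lay above the input in every library (12.2% of all genes) and 13 below (10.8%).

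The calls fell on members with and without a TOP tract. Members with a TOP tract at the annotated start had a median log2 fold change of Roquin IP to input of -0.66 (28 tested, 4 called lower), members without one -0.53 (32 tested, 3 called lower) and members with no start in the table -0.59 (21 tested, 3 called lower). With the replicate block the calls were 7, 6 and 6 in the same order. For Ctrl IP to input the block called 7 of 28, 3 of 32 and 1 of 21, in either direction (6.65% of all genes higher and 5.78% lower). A link of tract and calls was not tested. Median coding GC content was 52.7% for members and 52.5% for all genes, and median coding length was 453 and 1368 bases. Spearman's rho between GC content and the log2 fold change of Roquin IP to input was 0.245 over 78 members and 0.336 over 8754 genes, and for Ctrl IP to input it was 0.225 and 0.451. These are descriptions across genes of the same libraries, and the part of GC content in the differences was not tested.

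Among replicates the members varied most in the input. The median SD of log2 CPM was 0.23 in Roquin IP, 0.36 in Ctrl IP and 0.53 in input, against 0.32, 0.45 and 0.47 for all genes, and Rps29 had the widest spread of all members in each group. Rps29 had 10.9, 44.6 and 37.9 CPM in Roquin IP, 8.83, 35.3 and 55.6 in Ctrl IP and 1.63, 85.4 and 62.5 in input, the last resting on 4, 216 and 126 reads. The library numbered 1 was the lowest of each group. Rps28 and Rpl38 were also lowest in input 1, at 6.92 and 3.26 CPM against 143 and 51.4 in input 2. All 3 have short coding sequences, of 168, 207 and 210 bases. Other short members went the other way: Rps27, of 252 bases, had 210.5, 84.2 and 56.5 CPM in input 1 to 3, and Rpl37a, of 276 bases, had 111, 94.1 and 70.4, both highest in input 1. Taking the 10 members with at most 300 coding bases, a limit chosen after their values were seen, the median deviation of log2 CPM from the group mean was -1.28 in input 1 and 1.00 in input 2, against -0.20 and 0.45 for the 69 longer members. Of the 10, 8 lay below the group mean in input 1 (all but Rps27 and Rpl37a) and 9 above it in input 2 (all but Rps27). Values of these short members against input therefore rest on libraries that differ from each other, and the part of coding length in this was not tested.

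**Figure D5:**
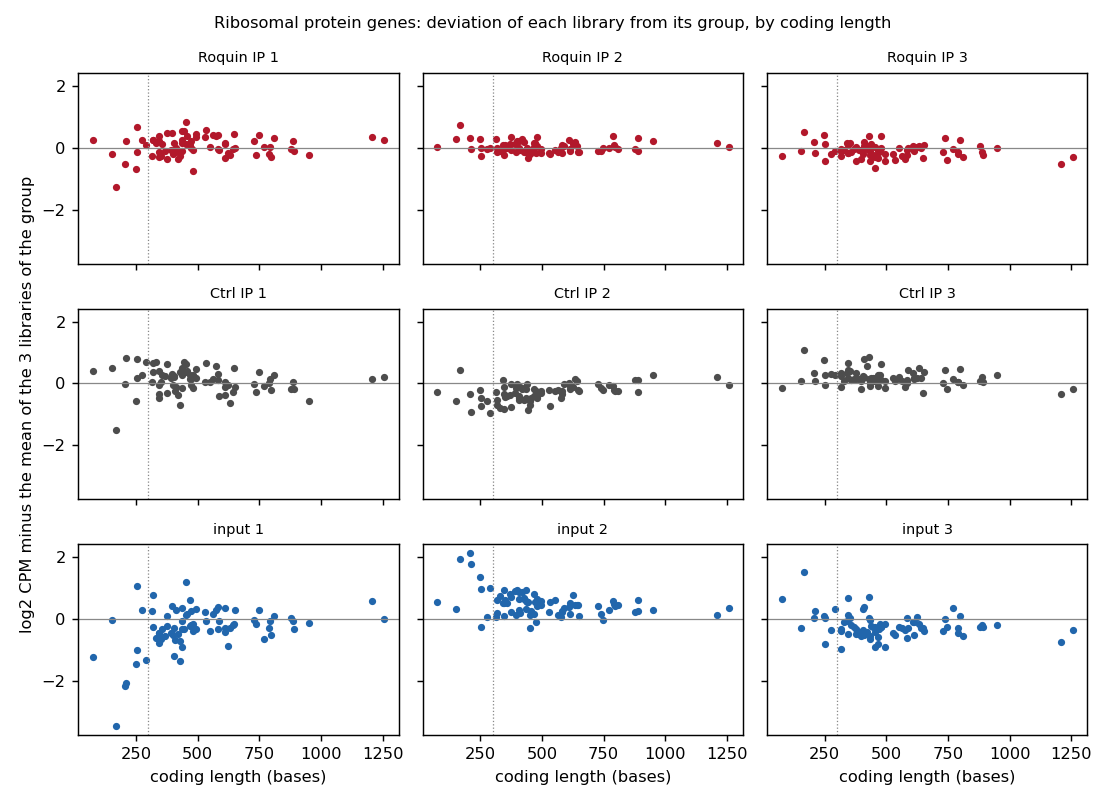
Deviation of log2 CPM from the mean of the 3 libraries of its group, for each tested member (points), against coding length in bases, with 1 panel per library; the dotted line marks 300 bases. Of the 10 members left of the line, 8 lie below 0 in input 1, with a median of -1.28 over the 10, and 9 above it in input 2, with a median of 1.00; Rps27 lies on the other side in both.

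Genes that act with the members were read from lists of related genes. Of 4 listed ribosomal protein genes outside the symbol rule, Rpsa, Fau and Gnb2l1 had log2 fold changes of -0.10, -0.44 and -0.37 to Ctrl IP. To input they had -0.70, -0.75 and -0.15. By edgeR 0 of the 4 were called in either comparison. At an unadjusted p under 0.05, 0 were higher and 2 lower against input (12.1% and 10.7% of all genes). DESeq2 called 0 and 0 there (7.41% and 5.59%). With the block Fau was lower than in input (-0.73, edgeR adjusted p = 0.0414). Of 17 other TOP mRNAs, edgeR called 0 against Ctrl IP (2 higher at an unadjusted p under 0.05, 0 by DESeq2) and 1 higher and 3 lower against input, where 5.45% of all genes were higher and 2.79% lower. Against input DESeq2 called 1 higher and 6 lower (7.41% and 5.59% of all genes), and at an unadjusted p under 0.05 there were 1 and 7 (12.1% and 10.7%). The higher gene by edgeR was Hnrnpa1, an RNA-binding protein, at 1.17, and the lower ones were Npm1, a nucleolar chaperone, at -1.20, Naca, of the nascent polypeptide-associated complex, at -0.98, and Eif3e, a subunit of an initiation factor, at -1.25. Of 29 ribosome biogenesis genes, edgeR called 2 higher against Ctrl IP, where 3.76% of all genes were higher. They were Dkc1, the pseudouridine synthase of box H/ACA particles, at 2.38 (edgeR adjusted p = 0.000654), and Nop10, a protein of the same particles, at 1.67 (0.00116). Both were also higher against input, at 1.35 and 1.20, where nucleolin (Ncl), Nop58 and Wdr43 were lower at -1.51, -1.35 and -1.06. DESeq2 called 2 higher and 5 lower of the biogenesis genes there (7.41% and 5.59% of all genes). With the replicate block, Eif4b, an initiation factor among the TOP mRNAs, was also higher against Ctrl IP (0.99, edgeR adjusted p = 0.0122). Against input the block called 2 higher and 7 lower of the other TOP mRNAs and 2 higher and 8 lower of the biogenesis genes. Of all genes the block called 9.99% higher and 8.04% lower there.

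Kinases and regulators of the class gave few calls. Of 7 tested S6 kinase genes, edgeR called 0 in any comparison. In Ctrl IP over input, 1 was higher and 1 lower at an unadjusted p under 0.05 (10.8% and 9.53% of all genes). DESeq2 called 1 lower there (4.08% of all genes). By either rule there were 0 in both comparisons of Roquin IP. Among 10 regulators of TOP mRNAs, edgeR called 1 higher and 0 lower in Roquin IP than in input (5.45% and 2.79% of all genes). This was Eif4ebp2, a repressor of cap-dependent initiation, at 1.88 (edgeR adjusted p = 0.00134). Its log2 fold change was only 0.67 to Ctrl IP, where edgeR called 0 of the 10. In Ctrl IP over input Eif4ebp2 stood at 1.21. Larp1 had 0.27 in Roquin IP over input, not called. Mitochondrial ribosomal protein genes, whose products form a separate ribosome, gave 1 call among 76 against Ctrl IP, where 3.76% of all genes were higher. It was Mrps33, with 149 CPM in Roquin IP, 17.0 in Ctrl IP and 23.6 in input, a log2 fold change of 3.12 to Ctrl IP (SE 0.32, edgeR adjusted p = 2.23e-05). Against input, Mrps33 and Mrps14 were higher, at 2.65 and 1.72, and Mrps21 was lower, at -1.27 (5.45% of all genes higher and 2.79% lower). The block raised these counts to 6 and 4 of 76, where 9.99% of all genes were higher and 8.04% lower.

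The genes whose levels followed the members most closely over the 9 libraries were found by Pearson's r with the mean log2 CPM of the 45 members that had a mean count of at least 500, among 1305 other genes with such a count. They were Rpl22, a ribosomal protein gene that the symbol rule leaves out, at 0.918, Lgals1, which encodes galectin-1, at 0.904, Npm1 at 0.859, Vps35, of the retromer, at 0.832, and Cops2, of the COP9 signalosome, at 0.828. These values describe 9 libraries of 3 groups and carry no test.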

How the data were processed

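Per the file headers, the authors' deposited table gives read counts per gene in each of the 9 libraries, and these were raw counts, whole numbers with a different total in each library. The authors also gave a ratio of Roquin IP to Ctrl IP and a p-value for it; the ratio is linear although its header names log2, and nothing read here says whether the p-value was adjusted. The tools were DESeq 1.8.3, BWA and CASAVA 1.8.2, per the submitters' processing notes; the genome build, the strand setting and the handling of reads with several matches are not named. The design text calls the 3 replicates of each group biological. A further 7480 entries without a symbol held no counts, and 0 per-sample columns were left unused.

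Counts were fitted with edgeR 4.0.16 in R 4.3.3 (TMM, quasi-likelihood F test, group as the only term, all 9 libraries in the same fit), after a filter at a minimum count of 10 that left 9567 genes, and adjusted over all of them at a threshold of 0.05. Genes varied between replicates with a common biological coefficient of variation of 0.35 (6 residual degrees of freedom). Intervals of fold changes come from the edgeR standard error at the 95% level; floors cover counting error only, since PCR copies are not independent molecules. Shares of reads were compared with an exact two-sided permutation test (scipy 1.17.1). Same-numbered libraries deviated together over all tested genes (r = 0.333, 0.315 and 0.58 for Roquin IP and Ctrl IP, 0.255, 0.357 and 0.471 for Roquin IP and input, 0.17, 0.152 and 0.327 for Ctrl IP and input), so the fit with replicate number as a block is given where it changes a call. Over the members alone, r for the same pairs was 0.744, 0.448 and 0.802, then 0.621, 0.473 and 0.576, then 0.367, -0.067 and 0.535. Ctrl IP 2 and input 2 thus did not deviate together over the members. Libraries of unlike number reached 0.429 there, for Roquin IP 3 and input 2. The pairing comes from the correlations over all genes, since the labels give only the number. The edgeR script was tested on simulated data.

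Coding lengths, 3' UTRs and 50-base stretches come from GENCODE vM21 (GRCm38), starts from RefSeq (GRCm38.p6). All 84 members matched RefSeq by symbol or synonym. Alternatives were RLE factors, library size alone, the members' sum as library size, no filter, a minimum count of 30, DESeq2 1.42.0, only the 6 libraries compared, the block, totals without Tnf and Lars2, members without -ps symbols, and each library left out. The members, the lists and the tests were chosen with earlier results of these data known. Genes are named by role, as paralogs, as called, as the 5 highest and 5 lowest per comparison, as the highest and lowest of each list, or, in a few cases, for shared sequence, a decay element core, non-overlapping groups or replicate spread, after their values were seen. A few genes are not reported here by name.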

Additional observations from a re-analysis of the deposited data

How the results depend on the processing

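With library size alone in place of TMM, 61 members were lower in Roquin IP than in Ctrl IP (38.8% of all genes) and 59 than in input (27.9%). Their medians were -1.09 and -1.36. With the members' sum as library size, which centres them by construction, 0 were lower in Roquin IP than in input (0.188% of all genes). The replicate block was then added, a choice made after the data were seen. With it 1 was higher and 4 lower in Roquin IP than in input (15.6% and 0.784% of all genes). In Ctrl IP over input 1 was higher and 3 lower (5.28% and 0.972%). DESeq2 called 16 lower in Roquin IP than in input (5.59% of all genes), and 2 higher and 8 lower in Ctrl IP than in input (4.16% and 4.08%). The replicate block, used for the pairing, called 19 lower in Roquin IP than in input (8.04% of all genes). In Ctrl IP over input it called 3 higher and 8 lower (6.65% and 5.78%). It changed no call of a member in Roquin IP against Ctrl IP. Without a filter 1 was higher and 8 lower in Ctrl IP than in input (2.37% and 1.62% of all genes), and 2 were lower at a minimum count of 30 (0.821%). Without the 3 libraries numbered 1, also chosen after the data were seen, 3 were lower in Roquin IP than in input (1.17% of all genes). With Tnf and Lars2 out of the totals, the difference in share between Roquin IP and Ctrl IP was -1.34 percentage points (-0.936 with them), and within 10 bases of the start 58.7% of members had a tract. Leaving out each library in turn, the members lower in Roquin IP than in input numbered 0 to 11 (0.306% to 4.61% of all genes), with medians of -0.69 to -0.34, and those lower in Ctrl IP than in input 0 to 2 (0.0% to 0.877%). The causes were not tested. Fits with a library left out also have fewer degrees of freedom, and the part of this was not tested either. Of 2080 values of single named members under these settings, 1921 kept direction and side of the threshold or were uncalled, 79 lost a call, 80 gained one and 0 reversed a call. Short members and Rpl21 are limited by depth, at 4 reads for Rps29 in input 1 and 8 for Rpl21 in Roquin IP 1.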
